A study of Mus musculus with 6 samples.

Results

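The nuclear genes of the mitochondrial respiratory chain were examined in alveolar type II cells that had lost Stat3. Members were the probe sets that name 1 gene whose symbol begins with Nduf, Uqcr, Cox4 to Cox8 or Atp5, or is Sdha, Sdhb, Sdhc or Sdhd. The rule found 179 of the 45037 probe sets tested, for 90 of 18193 genes. Of these genes, 39 had 1 probe set and 51 had several, up to 6. Where a gene had several, the one with the highest mean signal stood for it. A further 10 probe sets name several genes that include such a symbol, and were not used. By this count, complexes I to V were represented by 34, 4, 8, 10 and 17 subunits, beside 8 assembly factors of complex I, the supercomplex factor Cox7a2l and 8 tissue isoforms of complex IV subunits.

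The respiratory chain sits in the inner mitochondrial membrane. Complex I takes electrons from NADH and complex II from succinate, ubiquinone carries them to complex III, and cytochrome c carries them on to complex IV, which reduces oxygen. The proton gradient built by complexes I, III and IV drives ATP synthesis by complex V. Type II cells are rich in mitochondria, which supply surfactant synthesis and secretion. STAT3 is a transcription factor, a pool of which has been described in mitochondria, and Ndufa13, a complex I subunit also called Grim19, is known to bind it.

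The Stat3Δ/Δ mice carried SP-C-rtTA and (tetO)7CMV-Cre together with Stat3flx/flx, and doxycycline given to the dams switched on Cre through the surfactant protein C promoter, which deleted an exon of Stat3 in respiratory epithelium. Littermate controls were not deleted; their source label gives SP-C-rtTA with (tetO)7CMV-Cre and no Stat3flx/flx, whereas the methods give 1 of these transgenes with Stat3flx/flx, so the floxed state of the controls is not settled. Both groups were 8 weeks old, and each had 3 pools of type II cells from 3 mice, isolated by collagenase digestion and differential plating. Each pool was hybridized to its own MOE430 array. In such isolates, fewer cells of a type and less RNA per cell cannot be told apart.

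The deposited signals had medians of 338 to 381 on the Stat3Δ/Δ arrays and 283 to 361 on the control arrays. All levels given as log2 are log2(signal + 69.9), quantile normalized, and all fold changes are differences of these means, Stat3Δ/Δ minus control, which understates the change of dim genes. Of 4 Stat3 probe sets, 2 lay below every control array on all 3 Stat3Δ/Δ arrays, with log2 fold changes of -0.71 and -0.80. The other 2 gave -0.047 and 0.60, with overlapping pools. The titles start with a number whose meaning no source used here gives. It is 2 for Stat3Δ/Δ pools 1 and 2 and control pool 3, and another number for each of the remaining sets of pools. The Gapdh control probe sets, 3' over 5', had log2 ratios of -0.494, -0.304 and -0.445 in Stat3Δ/Δ pools 1 to 3 and 0.274, 0.0309 and -0.245 in control pools 1 to 3, a difference of -0.43. That of Actb differed by -0.25. The exact permutation test, two-sided, gave p = 0.1 for each, and no smaller p is possible with 3 pools against 3. The 9 type II cell markers measured had a median log2 fold change of -0.026, and Sftpc, which marks these cells, had levels of 16.68 to 16.85 in Stat3Δ/Δ pools and 16.69 to 16.82 in control pools. Before normalization between arrays, the summed signal of the 9 was 615600 to 817900 in Stat3Δ/Δ pools and 734100 to 820400 in control pools. The Sftpc signals were 96380.8, 94430.5 and 129372.1 in Stat3Δ/Δ pools 1 to 3 and 119178.5, 107379.4 and 125713.8 in control pools 1 to 3. Of the 9, 2 lay lower in every Stat3Δ/Δ pool than in any control pool, Abca3 (-0.73) and Slc34a2 (-0.15), and 0 lay higher. All genes gave 10.2% and 4.23%. Among markers of other cells, the summed signal of 6 neutrophil genes was 19780 to 26110 in Stat3Δ/Δ pools and 4034 to 12400 in control pools, and that of 8 macrophage genes was 118500 to 169000 in Stat3Δ/Δ pools and 102300 to 109700 in control pools. The summed signal of 10 fibroblast genes was 5994 to 11800 in Stat3Δ/Δ pools and 16940 to 33840 in control pools. Most of the neutrophil sum came from S100a8 and S100a9 (1.68 and 1.88). Of the 6 neutrophil genes, 4 had a log2 fold change above 0 and 2 below, Cxcr2 (-0.0052) and Elane (-0.35). Chil3 (0.54) had the largest macrophage signals, and all 8 macrophage genes lay above 0, from 0.045 to 0.81. Of the 10 fibroblast genes, 8 lay below 0 and 2 above. Median log2 fold changes were 0.76, 0.50 and -0.94 for these lists, -1.22 for 6 mesothelial and -0.56 for 12 ciliated cell genes, -0.22 for 7 airway secretory, -0.29 for 8 endothelial and 0.17 for 8 lymphocyte genes. No marker was listed at 0, and the part of these cells in the results that follow was not tested.

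No respiratory chain probe set passed the study's thresholds in these signals, namely a limma p up to 0.05, a false discovery rate (FDR) over all probe sets up to 10%, and 1.5-fold or more. They called 0 of 179 probe sets, beside 1 of all 45037 (0.00222%). At p and fold without the FDR, 2 of 179 were higher, where all probe sets gave 4.14%, and 2 were lower, where all gave 4.22%. At an unadjusted p of at most 0.05 there were 4 of 179, or 2.23%, against 8.45% of all probe sets. Counted by gene, 0 of 90 were higher at p and fold (2.15% of all genes) and 1 was lower (5.55% of all genes). In both directions the share of members that passed lay below that of all features. Without control pool 3 the probe sets at p and fold were 5 higher and 7 lower, where all probe sets gave 6.48% and 5.1%. Without Stat3Δ/Δ pool 3 they were 2 higher and 7 lower, where all gave 5.02% and 5.28%.

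The levels nevertheless leaned downward. Of the 90 genes, 68 had a log2 fold change below 0, or 75.6%, against 59.3% of all genes, and the median was -0.15, against -0.085 for all genes and -0.088 for the genes with an above-median signal. The 3 Stat3Δ/Δ arrays lay below all 3 control arrays for 12 of the 90 genes, or 13.3%, close to the 10.2% of all genes. They lay above them for 2, or 2.22%, where all genes gave 4.23%. Among the 11712 genes with an above-median signal, 1350 were separated downward and 520 upward. With the arrays centred on their medians in place of quantile normalization, the median was -0.34 for the respiratory chain and -0.18 for all genes, and with no normalization between arrays it was -0.20 and -0.039. Within the 3 arrays that share the title number 2 it was -0.028, with 50 of 90 below 0, against -0.048 for all genes. The lean of the members beyond all genes was not seen there, but the only control array there is control pool 3. That pool was the lowest of the 6 arrays for 31.1% of members, against 16.7% of all genes. For Stat3Δ/Δ pool 1, also among these 3 arrays, the shares were 45.6% and 26.4%.

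The complexes differed in size of the lean, although no test of the difference between them was made. Complex I subunits had a median of -0.20, with 29 of 34 below 0. Complex III subunits had -0.15 with 6 of 8 below 0, and complex IV subunits -0.15 with 7 of 10. Complex V subunits had -0.085, close to the median of all genes, with 10 of 17 below 0. Complex II subunits had -0.00053, with 2 of 4 below 0. Within the arrays of title number 2, complex I had a median of -0.14 and complex II had -0.10, while complexes III, IV and V had 0.15, 0.0014 and 0.13. Without control pool 1 the medians of complexes III and V were 0.015 and 0.032, and without control pool 2 that of complex V was 0.040.

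**Figure D1:**
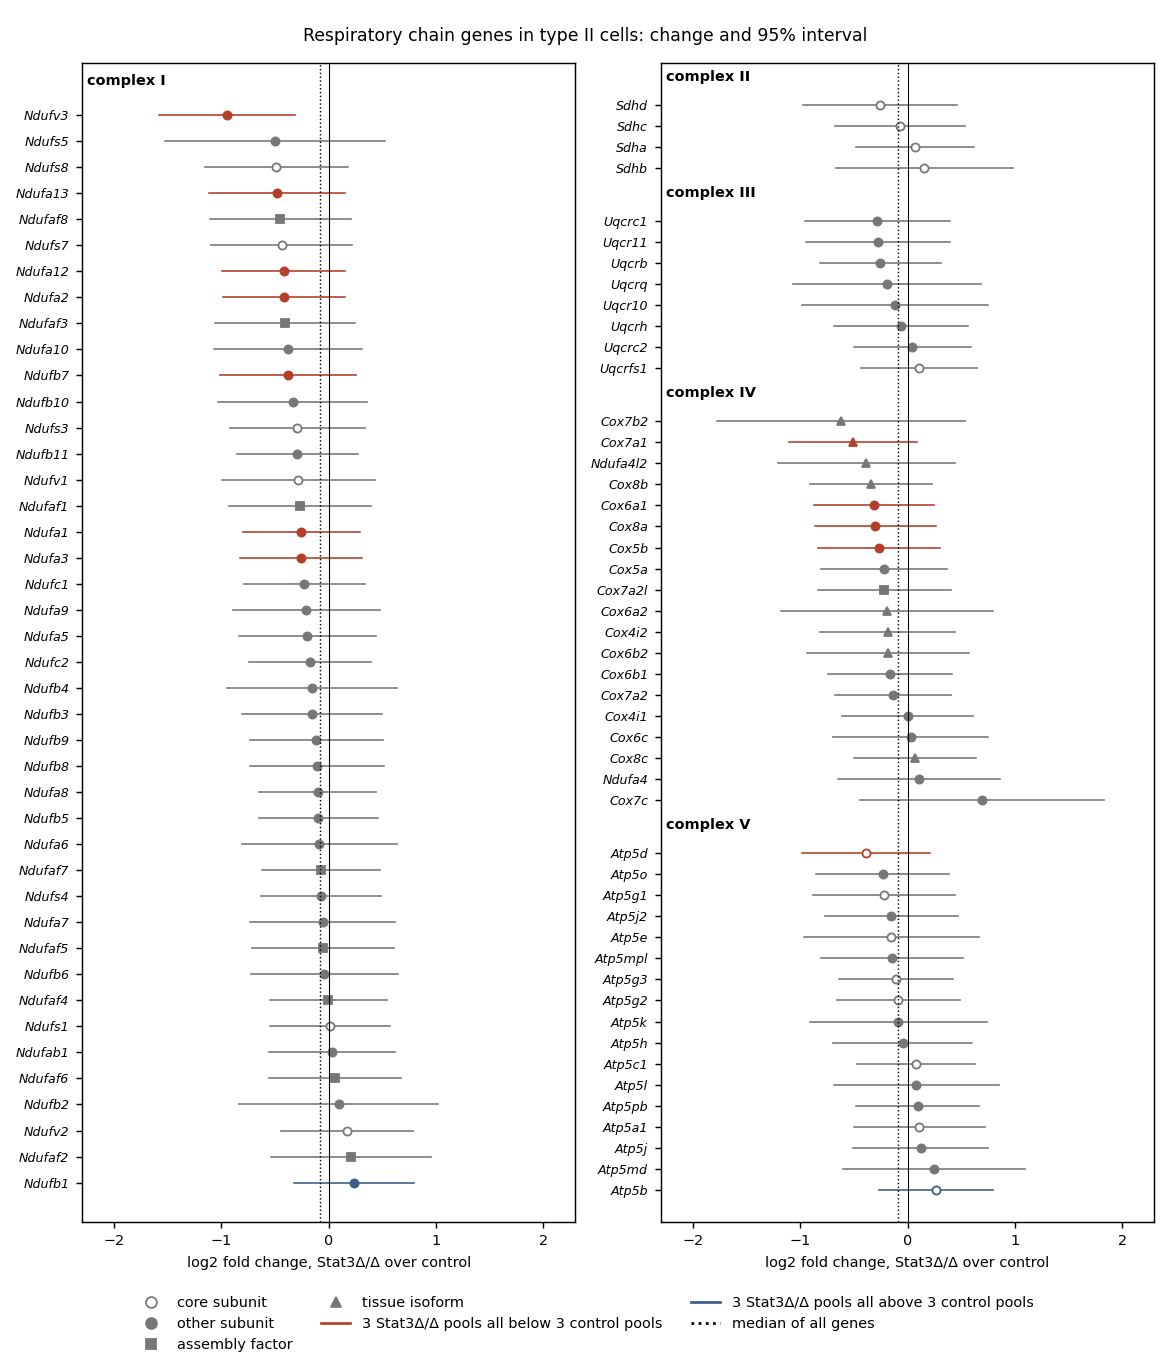
The log2 fold change of each of the 90 genes, Stat3Δ/Δ over control, is plotted on the x axis with its 95% interval, grouped by complex, with the marker showing the class of the gene and the colour whether the pools of the groups overlapped. Every interval but that of Ndufv3, at -0.95, spans 0, and 68 of the 90 points lie left of it.

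Complex I held the gene that differed most. Ndufv3, an accessory subunit of the NADH-oxidizing end of the complex, had log2 levels of 13.01, 13.54 and 13.46 in Stat3Δ/Δ pools 1 to 3, against 14.02, 14.30 and 14.54 in control pools 1 to 3. The lowest control pool lay above the highest Stat3Δ/Δ pool. Its log2 fold change was -0.95 (SE 0.28, 95% interval -1.58 to -0.32), with an adjusted p of 0.495 from limma (unadjusted 0.00848), between 0.298 and 0.848 under the alternatives tried. Within the arrays of title number 2 it was -1.26. Ndufv3 has 1 probe set on the array, so no other probe set bears on the value.

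The promoters of 74 of the 90 genes are in the RefSeq table used (GRCm38.p6), each from 250 bases before the start of the gene to 50 after it. Of these, 3 are shown on the strand of the gene, 5′ to 3′: that of Ndufv3, the member with the largest difference, and those of Atp5d and Cox6a1, which also lay lower in every Stat3Δ/Δ pool and hold different motifs. Capitals mark every match, on either strand, to TTCNNNGAA (the STAT motif), GCGCATGCG (nuclear respiratory factor 1, NRF1), CCGGAAG (ETS factors) or AAGATGGCG (YY1). The windows are chr17:31519865-31520164 on the plus strand for Ndufv3, chr10:80142065-80142364 on the plus strand for Atp5d and chr5:115348909-115349208 on the minus strand for Cox6a1.
Ndufv3: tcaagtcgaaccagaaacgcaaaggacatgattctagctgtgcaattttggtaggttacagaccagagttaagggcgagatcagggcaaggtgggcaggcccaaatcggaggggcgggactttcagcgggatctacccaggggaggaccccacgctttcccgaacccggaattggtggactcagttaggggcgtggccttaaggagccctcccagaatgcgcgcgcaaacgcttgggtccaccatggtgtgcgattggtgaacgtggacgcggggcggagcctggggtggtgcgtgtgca
Atp5d: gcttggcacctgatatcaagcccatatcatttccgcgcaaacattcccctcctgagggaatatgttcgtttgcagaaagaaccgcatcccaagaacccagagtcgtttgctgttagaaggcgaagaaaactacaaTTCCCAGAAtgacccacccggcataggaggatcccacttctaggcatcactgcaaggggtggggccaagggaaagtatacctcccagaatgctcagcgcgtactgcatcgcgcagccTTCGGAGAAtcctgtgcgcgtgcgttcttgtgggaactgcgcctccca
Cox6a1: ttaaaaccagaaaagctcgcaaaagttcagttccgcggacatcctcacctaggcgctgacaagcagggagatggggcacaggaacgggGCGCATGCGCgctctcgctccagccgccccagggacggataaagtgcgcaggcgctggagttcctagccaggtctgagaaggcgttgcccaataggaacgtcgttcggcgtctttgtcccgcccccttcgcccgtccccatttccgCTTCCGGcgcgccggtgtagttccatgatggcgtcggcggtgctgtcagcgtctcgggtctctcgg
Ndufv3 had no match to any of these motifs, Atp5d had matches to the STAT motif on both sides of the start shown, and Cox6a1 had an NRF1 and an ETS match. Atp5d has another start, not shown, whose window (chr10:80142025-80142324) held a STAT match only before the start, at -75. The STAT motif occurred in 5 of 74 member promoters, or 6.76%, against 8.57% of 14367 promoters of genes on the array. NRF1 matches, which overlap themselves on the opposite strand, occurred in 9 of 74, or 12.2%, against 3.10%. ETS matches occurred in 19, or 25.7%, against 15%, and YY1 matches in 7, or 9.46%, against 2.54%. Among the 11 promoters of members whose Stat3Δ/Δ pools lay below all control pools, 1 had the STAT motif, 1 NRF1, 3 ETS and 0 YY1. These are matches of letters and not sites of binding.

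Other accessory subunits of complex I had smaller differences. Ndufa13, the STAT3-binding subunit, had log2 levels of 14.71, 15.08 and 15.45 in Stat3Δ/Δ pools 1 to 3 and 15.52, 15.46 and 15.71 in control pools 1 to 3. The groups were separated narrowly, between Stat3Δ/Δ pool 3 and control pool 2. The log2 fold change was -0.48 (SE 0.28, adjusted p = 0.685 from limma).

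Ndufa12 had 14.13, 14.54 and 14.14 in Stat3Δ/Δ pools and 14.82, 14.64 and 14.61 in control pools, a log2 fold change of -0.42. Ndufa2 had 14.01, 14.35 and 14.37 in Stat3Δ/Δ pools and 14.81, 14.68 and 14.50 in control pools, also -0.42. In both genes every Stat3Δ/Δ pool lay below every control pool, and the standard error of each was 0.25. Ndufb7 (-0.38), Ndufa1 (-0.26) and Ndufa3 (-0.26) were separated in the same direction. Ndufb1 was the only complex I gene separated upward, with 9.69, 9.79 and 9.69 in Stat3Δ/Δ pools against 9.62, 9.58 and 9.25 in control pools, a log2 fold change of 0.24 (SE 0.24). The other accessory subunits lay between -0.50 for Ndufs5 and 0.094 for Ndufb2, with overlapping pools.

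The core subunits of complex I, which carry the flavin and the iron-sulphur centres, had a median of -0.29, with 4 of 6 below 0, beside -0.19 and 25 of 28 for the accessory subunits. Ndufs8, which holds iron-sulphur centres on the path to ubiquinone, had 14.02, 14.53 and 14.87 in Stat3Δ/Δ pools and 15.08, 15.02 and 14.79 in control pools. The highest Stat3Δ/Δ pool lay above the lowest control pool, and the log2 fold change was -0.49 (SE 0.29, adjusted p = 0.696 from limma). Ndufs7, next to the ubiquinone site, had -0.44, Ndufs3 -0.29, and Ndufv1, the flavin subunit, -0.28. Ndufs1 and Ndufv2 had 0.012 and 0.17. The pools of the groups overlapped for every core subunit.

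The 8 assembly factors of complex I, which build the complex without staying in it, had a median of -0.061, between -0.45 for Ndufaf8 and 0.20 for Ndufaf2. None was separated between the groups. Ndufaf2 had 10.12, 10.32 and 10.17 in Stat3Δ/Δ pools and 10.06, 10.54 and 9.40 in control pools, so that its positive value rested on control pool 3. Without that pool it was -0.094.

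Complex II, the only complex shared with the citric acid cycle, had values on both sides of 0. Sdha, the flavoprotein, had 13.98, 14.05 and 14.31 in Stat3Δ/Δ pools and 13.97, 13.99 and 14.17 in control pools, a log2 fold change of 0.071 (95% interval -0.48 to 0.62). Sdhb, the iron-sulphur subunit, had 13.72, 13.91 and 14.31 in Stat3Δ/Δ pools against 14.19, 14.19 and 13.10 in the control pools, with 0.16 (95% interval -0.67 to 0.98). The membrane anchors Sdhc and Sdhd had -0.072 and -0.26. Control pool 3 was the lowest array for Sdhb, and without it the value was -0.21.

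In complex III the intervals of all 8 subunits that the rule covers spanned 0. Uqcrc1, a core protein on the matrix side, had 13.36, 13.60 and 14.18 in Stat3Δ/Δ pools and 14.21, 14.00 and 13.78 in control pools, a log2 fold change of -0.28 (SE 0.30), the lowest of the complex. Uqcr11 had -0.27. Uqcrfs1, the Rieske iron-sulphur protein that passes electrons to cytochrome c1, had 13.16, 13.31 and 13.10 in Stat3Δ/Δ pools and 12.94, 13.13 and 13.19 in control pools, and gave 0.11 (SE 0.24). Uqcrc2 gave 0.046, and Uqcrb, a member with one of the 3 highest signals, -0.26 (SE 0.25).

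Complex IV is built around subunits encoded in the mitochondrial genome, which the rule does not cover, and its nuclear subunits exist in part as tissue isoforms. Of its 10 widely expressed subunits, 3 were separated downward, where all genes gave 10.2%, and 0 upward, where all gave 4.23%. Cox6a1 had 14.41, 14.80 and 14.79 in Stat3Δ/Δ pools and 15.01, 14.96 and 14.97 in control pools, with -0.31 (SE 0.24, adjusted p = 0.758 from limma). Cox8a had 13.54, 13.75 and 13.98 in Stat3Δ/Δ pools and 14.13, 14.03 and 14.00 in control pools, with -0.30 (SE 0.24). Cox5b had 14.78, 15.08 and 15.27 in Stat3Δ/Δ pools and 15.28, 15.32 and 15.35 in control pools, with -0.27 (SE 0.25). In each, Stat3Δ/Δ pool 1 was the lowest array.

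Cox4i1, with a signal among the 3 highest of the members, had 15.57, 15.74 and 15.88 in Stat3Δ/Δ pools and 15.94, 15.88 and 15.37 in control pools. Its log2 fold change was -8.8e-05 (95% interval -0.61 to 0.61). Cox7a2, also among the 3 highest, had -0.13, and Ndufa4, first named as a complex I subunit and now placed in complex IV, had 0.11. Cox7c had the highest value of all members, 0.69 (95% interval -0.45 to 1.83), from signals of 308, 178 and 77.2 in Stat3Δ/Δ pools and 36.7, 16.6 and 227 in control pools. Both its probe sets were dim, and control pool 3 lay within the range of the Stat3Δ/Δ pools.

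Of the isoforms known from heart and skeletal muscle, Cox7a1 was separated, with 8.50, 8.79 and 9.05 in Stat3Δ/Δ pools and 9.46, 9.24 and 9.16 in control pools, and gave -0.51 (SE 0.26, adjusted p = 0.649 from limma). Cox6a2 had signals of 3365, 7838 and 11412 in Stat3Δ/Δ pools and 8928, 6943 and 7213 in control pools, with -0.19 (SE 0.43), and Cox8b had signals of 18.5 to 49 in Stat3Δ/Δ pools and 42.4 to 55.9 in control pools. The groups overlapped for both. The 11 striated muscle markers summed to signals of 2965 to 3600 in Stat3Δ/Δ pools and 2920 to 4806 in control pools, with a median log2 fold change of -0.25 and 9 of 11 below 0, and the 10 markers of smooth muscle cells and pericytes to 5974 to 9070 in Stat3Δ/Δ pools and 6501 to 10600 in control pools, with a median of -0.18. The part of these cells in the isoforms' values was not tested. Cox4i2, the isoform known from lung, had -0.19 (SE 0.27), Ndufa4l2, a paralogue induced by low oxygen, -0.38 (SE 0.36), and the testis isoforms Cox6b2, Cox7b2 and Cox8c had -0.18, -0.62 and 0.067. The supercomplex factor Cox7a2l had -0.22.

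**Figure D2:**
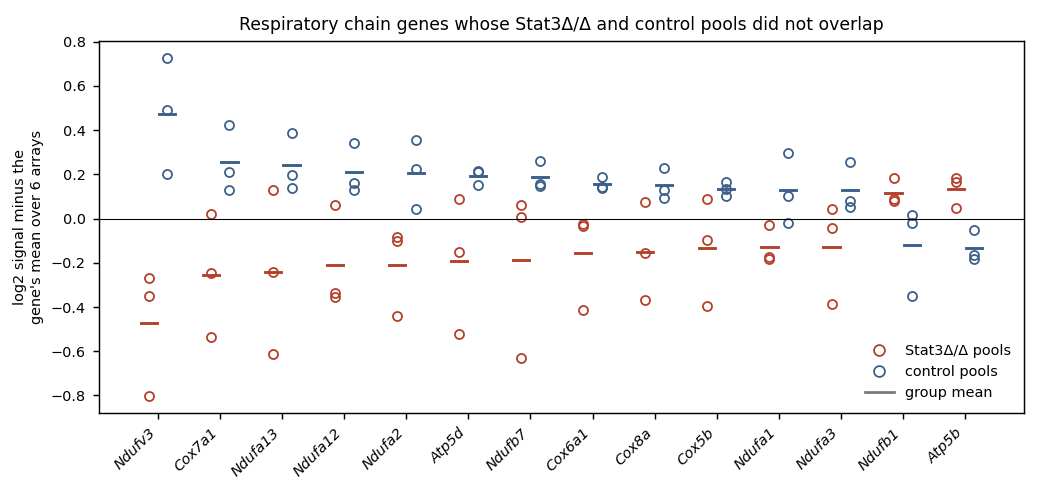
Log2 signal minus the gene's mean over the 6 arrays (y axis) is shown for the 14 genes whose groups did not overlap, with each Stat3Δ/Δ pool and each control pool as a point and the group mean as a line. Ndufv3 has the widest gap, at -0.95 between the means; in Ndufb7, Atp5d and Cox6a1, Stat3Δ/Δ pool 1 lies well below the rest of its group.

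Complex V showed values on both sides of 0. Atp5b, the catalytic beta subunit, had 15.59, 15.46 and 15.57 in Stat3Δ/Δ pools and 15.36, 15.23 and 15.25 in control pools, and was higher in each Stat3Δ/Δ pool than in any control pool. Its log2 fold change was 0.27 (SE 0.23, adjusted p = 0.784 from limma). Atp5d, the delta subunit of the central stalk, had 14.55, 14.92 and 15.16 in Stat3Δ/Δ pools and 15.28, 15.22 and 15.29 in control pools, lay lower in each, and gave -0.39 (SE 0.26, adjusted p = 0.723 from limma). Both belong to the same enzyme part, the F1 head and stalk, whose other subunits Atp5a1 (alpha), Atp5c1 (gamma) and Atp5e (epsilon) gave 0.11, 0.080 and -0.15 with overlapping pools.

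The proton-carrying c subunit is encoded by Atp5g1, Atp5g2 and Atp5g3, which gave -0.22, -0.085 and -0.11. Atp5o, the oligomycin sensitivity protein of the peripheral stalk, gave -0.23 (SE 0.27). Atp5md, a small subunit of the membrane part, had 12.74, 12.24 and 12.30 in Stat3Δ/Δ pools and 12.51, 12.62 and 11.40 in control pools, and gave 0.25 (SE 0.37), or -0.14 without control pool 3.

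Pools of 1 group differed from each other over the members by as much as the groups did. Stat3Δ/Δ pool 1 was the lowest of the 6 arrays for 41 of 90 members, or 45.6%, against 26.4% of all genes. Control pool 3 was the lowest for 28 of 90, or 31.1%, against 16.7% of all genes. Control pool 1 was the highest for 33 members, or 36.7%, against 27.0%. Control pool 3 lay below the mean of control pools 1 and 2 by a median of -0.23 on the log2 scale over the members and -0.092 over all genes, and by -0.48 over the 8 complex III genes. Stat3Δ/Δ pool 1 minus the mean of pools 2 and 3 had a median of -0.22 over the members and -0.070 over all genes.

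Subunits of several complexes shared the dip of control pool 3; Uqcrq and Ndufb2 were chosen as examples after their values were seen. Uqcrq had 12.94, 12.74 and 13.18 in Stat3Δ/Δ pools and 13.65, 13.46 and 12.30 in control pools. Ndufb2 had 13.69, 13.62 and 14.20 in Stat3Δ/Δ pools against 14.39, 13.93 and 12.90 in the control pools. In these genes and in Sdhb and Atp5md, given above, control pool 3 was the lowest array. Ndufs5 had 12.41, 11.75 and 11.88 in Stat3Δ/Δ pools and 12.93, 13.11 and 11.49 in control pools, so that its log2 fold change of -0.50 was 0.59 within the arrays of title number 2. The Gapdh ratio of control pool 3, -0.245, was likewise the control value nearest to the Stat3Δ/Δ pools. Its part in the dip was not tested.

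**Figure D3:**
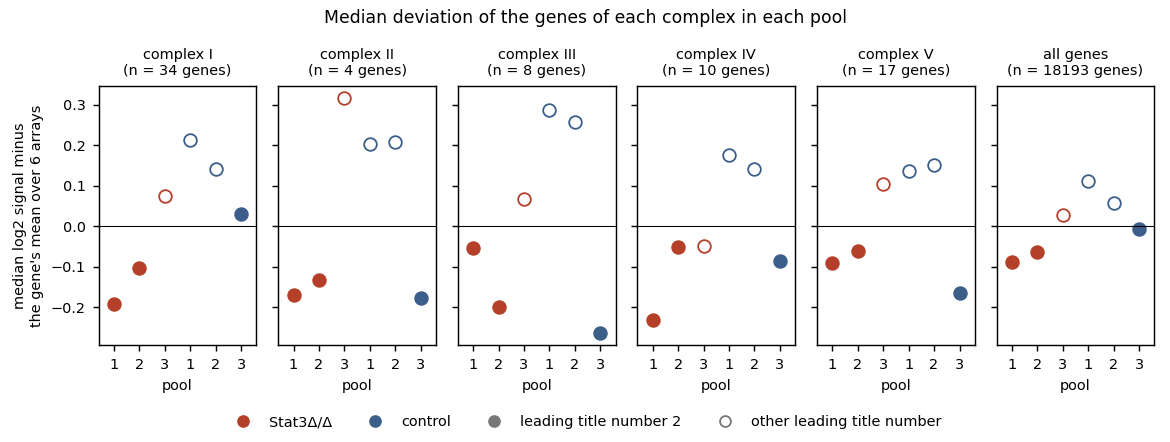
For each complex and for all genes, the y axis gives the median over genes of the log2 signal minus the gene's mean over the 6 arrays, 1 point per pool, with Stat3Δ/Δ pools left of control pools and filled points for the arrays that share the title number 2. In complexes II, III and V the filled control point (-0.178, -0.265 and -0.164) lies at or below the filled Stat3Δ/Δ points, and the open points lie above all of them.

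Where a gene had several probe sets, they did not always give the same value. The brightest probe sets of the 51 genes with several had a median of -0.15, with 40 below 0, and the 89 other probe sets of these genes -0.14, with 59 below 0. The other probe sets of all genes had a median of 0.035. The 23 member probe sets with a mean signal at or below the median of all probe sets (333.9) had -0.035, with 12 below 0, and the 156 above it had -0.16, with 115 below 0. By the suffix of the probe set name, the medians were -0.087 for 92 unique sets (_at), -0.16 for 39 sets common to transcripts of a gene (_a_at), -0.17 for 19 sets shared by several transcripts (_s_at) and -0.23 for 29 sets in which some probes may bind other sequences (_x_at). Many respiratory chain genes have processed pseudogenes, so a shared set may read more than 1 sequence.

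Ndufa12 ranged most, from -0.42 to 1.10 over 4 probe sets. The set at 1.10 (SE 0.53) had signals of 715, 804 and 270 in Stat3Δ/Δ pools and 85.6, 121 and 561 in control pools, so that the groups overlapped at control pool 3. Ndufab1, the mitochondrial acyl carrier protein that is also a complex I subunit, gave 0.030 for its brightest set. A second set gave -0.64 (SE 0.26, signals of 903, 1306 and 1163 in Stat3Δ/Δ pools and 1500, 1644 and 2012 in control pools). Another gave 0.88 (SE 0.36) from signals of 257, 114 and 92.6 in Stat3Δ/Δ pools and 5.6, 49.3 and 78.7 in control pools. These 2 sets of Ndufab1 therefore passed p and fold in opposite directions. The remaining probe sets that passed were that of Ndufv3 and a dim set of Atp5g2, at 0.77, with signals of 149, 66.2 and 84.4 in Stat3Δ/Δ pools and 5.4, 7.5 and 66.4 in control pools.

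Uqcr10 gave -0.11, -0.61 and -1.42 in its 3 probe sets. The set at -1.42 (SE 0.72) had signals of 311, 472 and 1794 in Stat3Δ/Δ pools and 2642, 2940 and 761 in control pools, and the groups overlapped. Cox5b ranged from -0.58 to 0.55 over 6 sets, of which 5 were below 0, and the set at 0.55 had signals of at most 166. Ndufs8 ranged from -0.49 to 0.21 over 6 sets, with 4 below 0, and all overlapped between the groups.

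**Figure D4:**
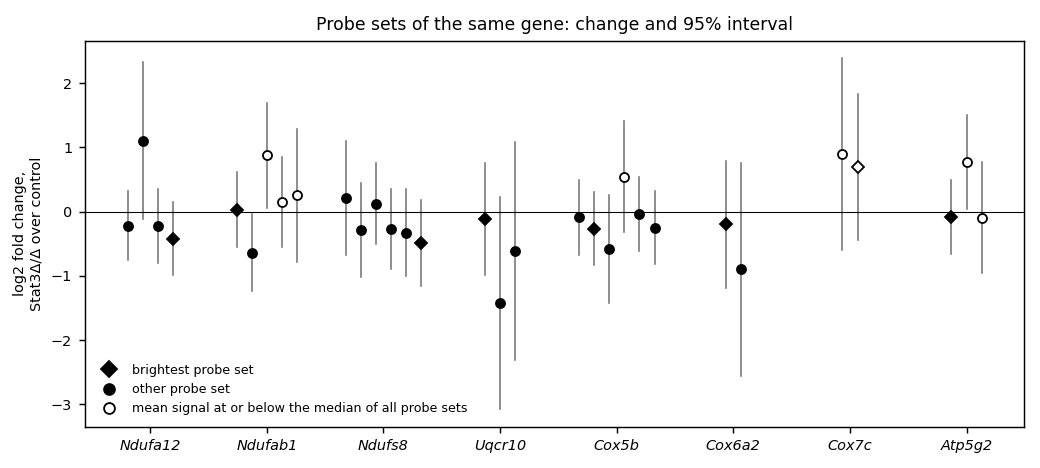
The log2 fold change and 95% interval of each probe set (y axis) is drawn for 8 genes, with a diamond for the brightest set and open symbols for sets with a mean signal at or below the median of all probe sets. The values of 1 gene differ in sign in Ndufa12, Ndufab1, Ndufs8, Cox5b and Atp5g2. The sets of Ndufab1 at -0.64 and 0.88 pass p and fold in opposite directions.

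The other mitochondrial genes are given for comparison by counts. Of 14 genes for electron carriers, ubiquinone synthesis, other enzymes and the subunit Cyc1, 0 passed p and fold, and the median was -0.13. At p and fold, 2.15% of all genes were higher and 5.55% lower. Of the 14, 2 were separated downward, Coq4 and Coq5, which act in ubiquinone synthesis (-0.53 each). Upward there was 1, Etfdh, which passes electrons from fatty acid oxidation to ubiquinone (0.42). All genes gave 10.2% downward and 4.23% upward. Cycs, cytochrome c, gave 0.044, and Cyc1, the cytochrome c1 subunit of complex III that the symbol rule leaves out, -0.16. Of 36 assembly factors outside the rule, 0 passed p and fold, with a median of -0.12 and 29 below 0; 4 were separated downward, among them Cox11, which inserts copper into complex IV (-0.55), and Acad9, an assembly factor of complex I (-0.47), and 2 upward, where all genes gave 10.2% and 4.23%.

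Of 20 regulators of mitochondrial biogenesis and mitochondrial DNA, 1 passed p and fold upward and 1 downward, with a median of 0.00028. All genes gave 2.15% upward and 5.55% downward. The first was Myc (0.69) and the second Twnk, the mitochondrial DNA helicase (-0.87), named here because they passed. Nrf1, Gabpa, Tfam and Ppargc1a, which drive transcription of respiratory chain genes or of the mitochondrial genome, gave 0.40, 0.44, 0.29 and 0.20, with overlapping pools. Of the 20 genes, 10 lay above 0 and 10 below. Downward, 2 were separated, Polrmt (-0.39) and Tfb1m (-0.29), and upward 1, where all genes gave 10.2% and 4.23%. Ppargc1b and Pprc1 gave -0.62 and -0.19, with overlapping pools. Of 20 genes of the citric acid cycle and pyruvate dehydrogenase, 0 passed, with a median of -0.090. Downward 1 was separated, Cs, citrate synthase (-0.35), and upward 2, Idh3a and Dld (0.55 and 0.53), where all genes gave 10.2% and 4.23%. Medians were -0.027 for 19 mitochondrial import genes and -0.034 for a list of 11 genes, namely Slc25a carriers, Ucp3 and Vdac1 to Vdac3. Of both lists 0 passed.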

How the data were processed

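The files hold 1 signal intensity per probe set and array, which the authors made with Affymetrix Microarray Suite 5.0 (MAS5) and deposited, with every array scaled to 1500 as its trimmed mean. The study tested RMA values, which were not used. Pools were assigned from titles and source names. Of 45101 probe sets, 64 controls were left out. Signals were shifted by 69.9 (their 20th percentile), log2 transformed and quantile normalized between arrays. With limma 3.58.1 (R 4.3.3), Stat3Δ/Δ was compared with control over 45037 probe sets, with Benjamini-Hochberg adjustment. The number of arrays limits the precision, and p-values measure the spread between pools of 3 mice. Pool numbers were not treated as pairs, since correlations of same-numbered deviations were -0.084, -0.0088 and -0.24. The fit was tested on simulated data with known changes.

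Genes of the array's annotation were used, with 34945 probe sets naming 1 gene, 932 several and 9160 none. Members and lists were chosen with earlier results of these data known. Named genes were the 2 lowest and 2 highest members of each complex, up to 12 separated members with the largest differences, the tissue isoforms with their common counterparts, the 5 genes whose probe sets differ most, Ndufs8 and Cox7c, which the study names, the 3 brightest members, and complex II; others are named to complete a complex. Alternatives changed the pseudocount, normalization, low-signal filter, blocks, test, probe set choice and arrays. Tables and plots used Python 3.11.15, pandas 2.3.3, numpy 2.4.6 and matplotlib 3.10.9.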

Additional observations from a re-analysis of the deposited data

How the results depend on the processing

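No respiratory chain probe set was called under any alternative tried with limma. The counts at p and fold without FDR, 2 higher and 2 lower of 179, were 0 higher and 1 lower with the median of all signals as pseudocount, 1 and 1 with no pseudocount, 2 and 1 with no normalization between arrays, 2 and 2 with arrays centred on their medians, 0 and 2 of the 156 probe sets with an above-median signal, 1 and 4 with the title number as a block, and 0 and 2 by the methods' t-test on the same values. With a replicate block on the pool number they were 0 higher and 1 lower; the pool numbers are not known to pair the samples. Leaving out 1 pool gave 0 to 5 higher and 1 to 7 lower, the most without control pool 3, and for the lower ones also without Stat3Δ/Δ pool 3.

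With arrays centred on their medians, the medians were -0.34 for all members, -0.38 for complex I, -0.41 for complex IV and -0.29 for complex V. With the title number as a block, as within the arrays that share title number 2, they were 0.15 for complex III, 0.0014 for complex IV and 0.13 for complex V. Leaving out 1 pool moved them from -0.24 to -0.080 for all members, -0.31 to -0.13 for complex I, -0.18 to 0.068 for complex II, -0.37 to 0.015 for complex III, -0.24 to -0.092 for complex IV and -0.16 to 0.040 for complex V. The cause of these shifts was not tested.

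Of the 39 named genes, 22 kept the sign of their log2 fold change in each alternative fit of their brightest probe set and 17 did not. The low-signal filter gave a value for 35 of the 39. The mean of all probe sets of a gene was not tried for these genes. With the title number as a block, and within the arrays that share number 2, Cox4i1 gave 0.28, Cox7a2 0.057, Cox7b2 0.24, Ndufs5 0.59, Uqcr10 0.40, Uqcr11 0.084, Ndufab1 -0.15 and Sdha -0.15. With arrays centred on their medians, Ndufa4 gave -0.083, Ndufab1 -0.13, Sdha -0.13, Sdhb -0.060, Uqcrc2 -0.15 and Uqcrfs1 -0.057, and with no normalization Uqcrc2 gave -0.012. Leaving out 1 pool changed the sign of these genes, which ranged from -0.21 to 0.036 for Atp5g2, -0.14 to 0.47 for Atp5md, -0.18 to 0.11 for Cox4i1, -0.57 to 0.30 for Cox6a2, -0.14 to 0.23 for Ndufa4, -0.084 to 0.14 for Ndufab1, -0.094 to 0.47 for Ndufaf2, -0.026 to 0.14 for Sdha, -0.21 to 0.34 for Sdhb, -0.24 to 0.029 for Sdhc, -0.48 to 0.12 for Uqcr10 and -0.043 to 0.12 for Uqcrc2. Within the arrays of title number 2 no test could be made. Dim probe sets, such as those of Cox7c and Cox8b, limit what their values show.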
